A study of Macaca mulatta with 64 samples.

Results

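HYPK and NEURL4 ranked 1 and 3 by mean level among the 13269 genes in the deposited CAGE-seq table of rhesus macaque brain, and in both genes nearly all 5′ ends fell far inside the annotated span. These 2 genes were chosen by their rank and by the place of their main position, so that pattern is described here and was not tested. All rows of the table for both genes were taken, 69 positions for HYPK and 106 for NEURL4 out of 160389. GPX4, which ranked between them at 12775 ± 7253 TPM (SD, n = 64), also had its main position inside its span but was not part of the pair.

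CAGE (cap analysis of gene expression) reads the 5′ ends of capped RNA, so each read end, or tag, marks a candidate transcription start. The 64 libraries came from healthy rhesus macaques, males and females of 1, 4, 10 and 20 yr, with no treatment named in the labels. Per the supplemental methods, 2 males and 2 females were taken for each age. The 8 tissues were prefrontal (PFC), posterior cingulate (PCC), temporal, parietal (PC) and occipital (OC) cortex, CA1 and dentate gyrus (DG) of the hippocampus, and cerebellar cortex (CB). Each region, age and sex had 1 library. The libraries of 1 age and sex are called an animal group here, and every SD below is the spread between animal groups or between libraries. The SEs and 95% intervals of log2 differences come from limma and rest on a variance pulled towards that of other genes, so they are wider than the spread of HYPK and NEURL4 alone. Per the study's text, CAGE used the same brain samples as its RNA-seq, for which the paired animals of 1 age and sex gave 1 library, so the spread between single animals was not measured.

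HYPK, huntingtin-interacting protein K, is a small chaperone-like protein that binds huntingtin and partners the NatA complex, which acetylates the N termini of new proteins at the ribosome. NEURL4 belongs to the neuralized family, whose first members were known from Notch signalling as regulators of ubiquitination. It is known as a centriolar protein that binds CP110 and the ubiquitin ligase HERC2. Neither gene is a marker of 1 brain cell type.

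Values are TPM, tags scaled to 1000000 tags of the library, summed over the positions of a gene. A tag marks the end of an RNA and not its body, so TPM was not divided by length. The smallest steps between low values showed 1507841 to 6097561 tags per library, the fewest of them in females of 20 yr (PFC). The number of positions listed ranged from 644 in the CB library of 10-yr-old females to 23670 in the CA1 library of 20-yr-old females, and the 8 CA1 libraries listed 7001 to 23670. HYPK rested on 45453 to 217889 tags per library and NEURL4 on 11732 to 120274, so counting error was small beside the spread between libraries, leaving aside copies made by PCR during library preparation. The region labels were checked against marker genes. The 8 listed cerebellar markers summed to 2234 to 3665 TPM in CB and to 0 to 771 TPM in the other 56 libraries, while PROX1, the defining gene of dentate granule cells, was listed in 1 library in all and could not check DG. CALB1, the other dentate marker, passed as higher in CB. Its difference of CA1 minus DG was −2.57 on the log2 scale, without a call (limma adjusted p = 0.0944). The 3 GABAergic markers summed to 0 TPM in 6 of 8 CB libraries, and TTR of the choroid plexus had no listed position.

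HYPK (ENSMMUG00000022768) was annotated on chromosome 7 of MMUL 1.0, from 22185163 to 22194966 on the plus strand. Its level was 31784 ± 8048 TPM (SD, n = 64), with a lowest value of 11636 in the temporal cortex of 10-yr-old females, a median of 30589 and a highest value of 48633 in the PFC of 20-yr-old males. HYPK alone held 5.66% of all listed TPM, and 2.22% to 7.75% in single libraries. Its main position, 22193394, lay 8231 nt inside a span of 9804 nt, at 84.0% of its length and 1572 nt before its end. Exon, intron and UTR boundaries for this build were not used here, so the feature that holds this position is not given.

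The main position was listed in 47 of 64 libraries. In the others the tags stood at 8240 nt, in 4 libraries, or at 8250 nt, in 13. Exactly 1 of these 3 positions was listed in each library, because the table gives a cluster of neighbouring tags by 1 position per library. Joined, the 3 positions formed a cluster 20 nt wide that held 98.8% of all HYPK TPM. The share ran from 89.7% to 100% by library, so no library had most of its HYPK tags anywhere else.

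The annotated start of HYPK carried little. Positions within 500 nt of the start, on either side, held 0.733% of HYPK TPM and were listed in 39 libraries. The leading one, 26 nt before the annotated start, was listed in 23 libraries at 82.9 to 1339 TPM, with the highest value in the PC of 20-yr-old males. In CA1, positions near the start summed to 9.37 ± 10.3 TPM (SD, n = 8), against 431 ± 602 TPM in PC, where 5 of 8 libraries had none. A low position at 8769 nt was more regular, with 17.1 ± 24.1 TPM in the 43 libraries that listed it. Of the 69 positions, 38 were listed in 1 library and 5 in at least 8.

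NEURL4 (ENSMMUG00000006207) was annotated on chromosome 16 from 7048567 to 7065206 on the minus strand. Its level was 12100 ± 5996 TPM (SD, n = 64), from 4059 in the OC of 10-yr-old males through a median of 10560 to 28929 in the CB of 20-yr-old females, or 0.724% to 4.53% of listed TPM. The main position, 7051168, lay 14038 nt inside a span of 16640 nt, at 84.4% of its length and 2601 nt before its end. It was listed in 45 libraries. The other libraries listed 1 of 6 positions from 14027 to 14052 nt instead, most often 14030 nt, in 7 libraries, or 14052 nt, in 6. The joined cluster, 26 nt wide, held 93.3% of NEURL4 TPM and 64.7% to 100% by library.

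The rest of NEURL4 lay mostly behind the cluster. In the 500 nt after it, 55 positions held 6.12% of the gene's TPM and were listed in 59 libraries at 740 ± 551 TPM (SD over all 64). The highest sum there, 2570 TPM, was in the PCC of 1-yr-old males. For HYPK the same window held 0.358% and 27 positions. The most regular of these NEURL4 positions, 14247 nt inside, was listed in 18 libraries at 461 ± 531 TPM. Tags at the annotated start were nearly absent: positions within 500 nt held 0.00555% of NEURL4 TPM, from 2 libraries, at 30.0 TPM in the DG of 20-yr-old females and 12.98 TPM in the CA1 of 4-yr-old males. Of the 106 positions, 64 were listed in 1 library and 7 in at least 8.

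**Figure D1:**
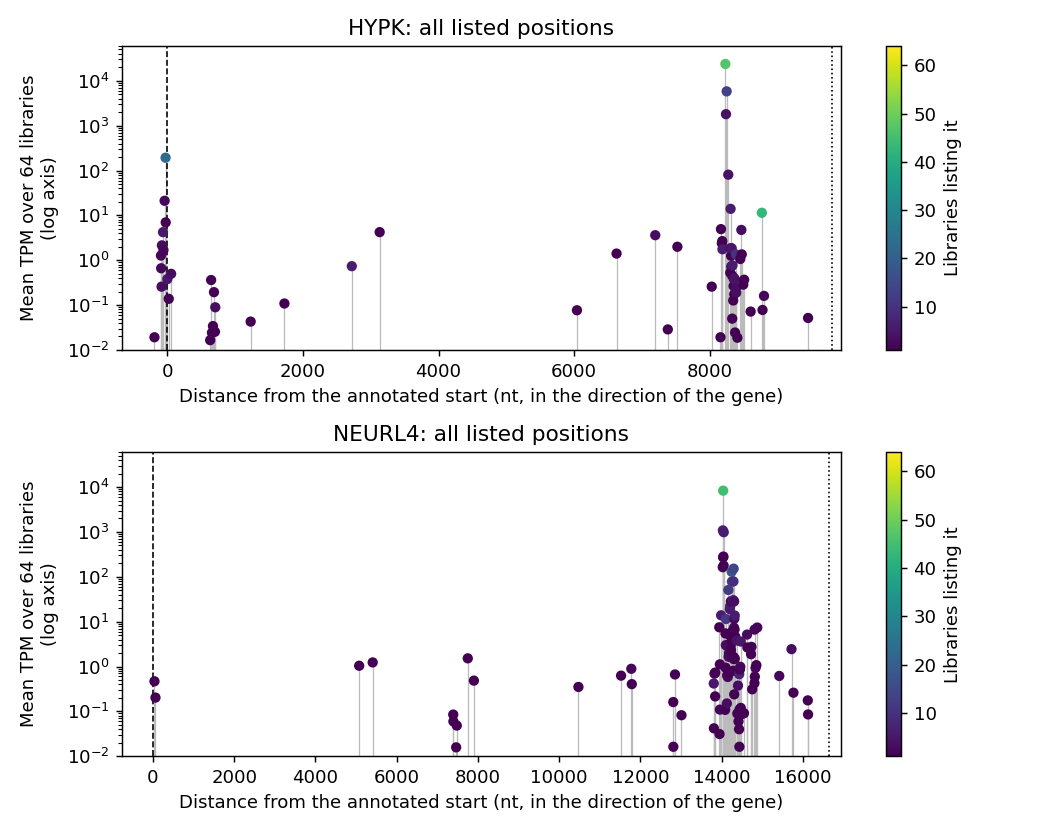
Every listed position of HYPK (top) and NEURL4 (bottom) by its distance from the annotated start in nt (dashed line; dotted line, annotated end), with the mean TPM over 64 libraries on a log axis and the number of libraries that list it as colour. The tallest points stand at 8231 nt in HYPK and 14038 nt in NEURL4, both over 80% of the way through the span, and only HYPK has a group of points at the start.

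A main position far inside the gene was not particular to this pair. Of the 20 genes with the highest mean TPM, 8 had their main position more than 500 nt inside the annotated start, against 61.6% of all 13269 genes and 54.9% of the 6106 genes listed in at least 8 libraries. A band from 80% to 90% of the span holds the pair's own values, by which they were chosen. It took in 10% of those 20, HYPK and NEURL4, and 8.29% of all genes. The main positions of SNCB (77.9%), GPX4 and SYP (both 93.0%) and RBM42 (94.4%) lay just outside it. The annotation is that deposited with the values and was not checked against a genome.

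Other genes lay close to both clusters. The HYPK span encloses MIR1282 and SERF2 on the minus strand, at 10.1 TPM (9 libraries) and 1.40 TPM (3 libraries). MFAP1, on the minus strand 2666 nt beyond the HYPK end, was at 36.3 TPM and PDIA3, 24347 nt before the start, at 18.5 TPM. EIF5A, a translation factor gene on the plus strand, lies 895 nt beyond the 3′ end of NEURL4 and was at 68.0 ± 138 TPM in 49 libraries. All of these neighbours were below the pair, as its choice by rank required. In the RefSeq annotation of another assembly, T2T-MMU8v2.0, SERF2 and SERINC4 come just before HYPK and GPS2 lies between EIF5A and NEURL4. SERINC4 and GPS2 were not among the genes analysed here. Which of 2 neighbouring transcripts the tags at the main clusters belong to was not tested, and the levels below are those assigned to HYPK and NEURL4 by the authors.

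The regions were compared next, which neither gene was chosen for. NEURL4 differed between regions and HYPK did not pass the test. The highest NEURL4 mean, 17846 ± 5975 TPM in PFC (SD, n = 8), was 3.10-fold the lowest, 5765 ± 629 in PC. NEURL4 was higher in PFC than in PC in 8 of 8 animal groups. The highest and lowest HYPK means, 35568 ± 9254 in PCC and 27021 ± 5238 in CA1, differed 1.32-fold. In both genes these regions were picked as the extremes of the same values. That choice raises the folds and favours the 8 of 8, and no share of all genes was counted for them.

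In order of mean, NEURL4 stood at 10585, 15585 and 26759 TPM in PFC (lowest, median and highest library). CA1 followed with 12609, 18382 and 21832, a mean of 17619 ± 3601. CB spread the widest, with 7548, 13898 and 28929 and a mean of 16017 ± 7698. These 3 regions overlapped almost fully. Temporal cortex had 5348, 12041 and 17556 TPM, a mean of 12316 ± 4433. DG had 8576, 10556 and 13804, a mean of 10955 ± 1635, and PCC 4828, 9495 and 14160, a mean of 9919 ± 3225. OC and PC were low in every library. The OC libraries had 4059, 6780 and 8124 TPM, a mean of 6361 ± 1393, and the PC libraries 4605, 5934 and 6424. No PC or OC library reached the lowest DG library, of 8576 TPM, or the lowest PFC library. The lowest libraries of PCC, temporal cortex and CB did lie within the range of PC and OC. This split was picked after the order was seen, and the share of all genes with such a split was not counted.

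The HYPK means lay closer together. After PCC came PFC with 22580, 35881 and 48633 TPM (mean 35525 ± 7865), CB with 23936, 35912 and 47095 (35358 ± 7628) and DG with 24650, 36332 and 41794 (34831 ± 5656). The middle place was that of OC, with 20866, 30509 and 42715 TPM and a mean of 31707 ± 7764. PC (27178 ± 6705), temporal cortex (27086 ± 8921) and CA1 lay lowest. All 8 regions overlapped.

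**Figure D2:**
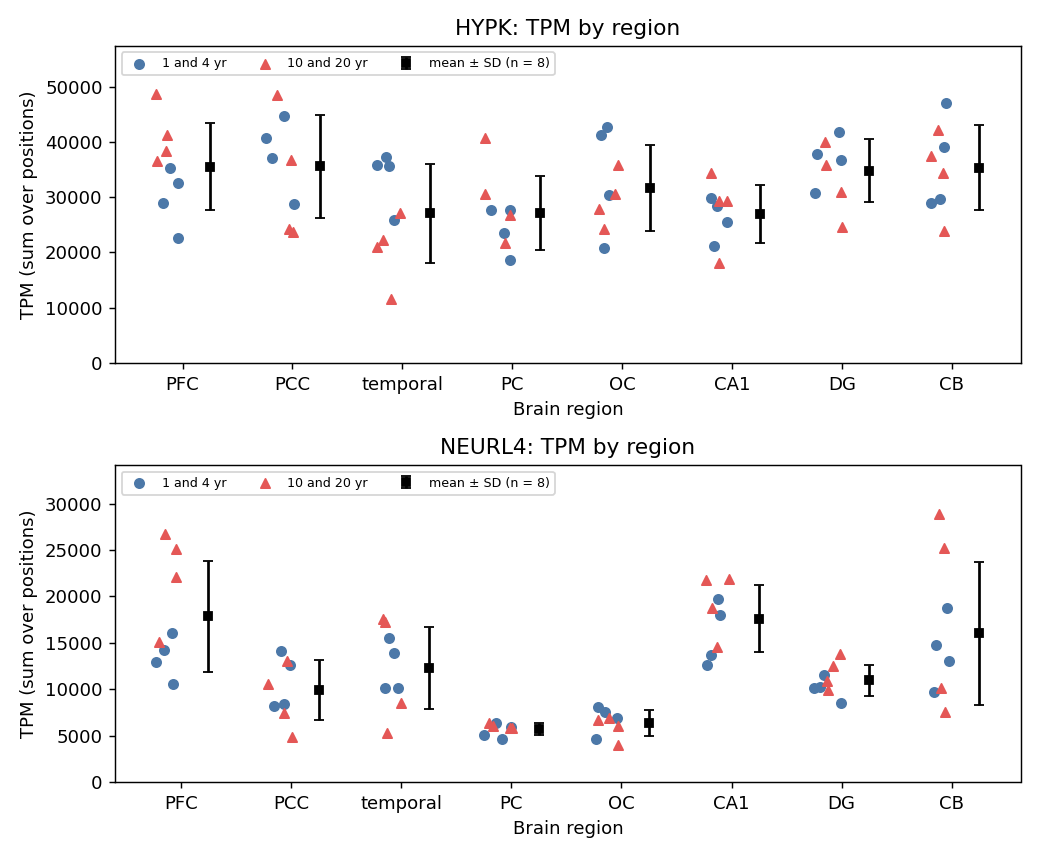
TPM of HYPK (top) and NEURL4 (bottom) in the 64 libraries by region, as circles for 1 and 4 yr and triangles for 10 and 20 yr, with the mean ± SD of 8 libraries as black squares. HYPK overlaps in all regions, while NEURL4 is between 4059 and 8124 TPM in every PC and OC library and at 10585 TPM or more in every PFC and CA1 library. The lowest NEURL4 libraries of PCC, temporal cortex and CB lie within the range of PC and OC.

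The test was limma on log2(TPM + 1) of 6106 genes, with the animal group as a block and p-values adjusted over all genes (Benjamini-Hochberg, two-sided). NEURL4 passed for any difference between regions (limma, F = 5.22, adjusted p = 0.00227), as did 26% of all genes tested. HYPK had F = 0.57 (limma, adjusted p = 0.813). The NEURL4 call rested on the setting for low values: with a pseudocount of 0.25 TPM the limma adjusted p was 0.0534. limma pulled both genes' spread towards that of low genes, from a residual SD of 0.38 to 0.74 for HYPK and from 0.40 to 0.75 for NEURL4 on the log2 scale. With a variance prior that follows the mean level, an alternative added after seeing the data, the limma adjusted p was 8.86e-07 for NEURL4 and 0.179 for HYPK. A permutation test of each gene alone within animal groups (100000 resamples) gave p = 1e-05 for NEURL4, the smallest it can give, and p = 0.0507 for HYPK, or 0.00012 and 0.122 adjusted over the 12 such tests of both genes.

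No 2 regions next to each other in the order of means passed for either gene, by exact sign flips over the 8 animal groups adjusted over 14 pairs. The order was taken from the same values, so these pairs were close by choice. The smallest p that 8 animal groups allow, 0.00781, is too large for 1 pair alone to pass this adjustment. The test therefore cannot tell whether neighbouring regions differ. The pair with the smallest p was PCC above OC for NEURL4, higher in 7 of 8 animal groups by 0.60 on the log2 scale (exact p = 0.0391, adjusted p = 0.547). The other 13 pairs had exact p-values of 0.125 to 0.992.

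The hippocampus was compared with the neocortex within each animal group. NEURL4 was higher in the hippocampus in 8 of 8 animal groups, by 0.58 ± 0.22 on the log2(TPM + 1) scale (SE, 95% interval 0.13 to 1.02), with 14287 ± 4375 TPM in 16 hippocampal libraries and 10441 ± 5670 in 40 neocortical ones. The 2 sets of libraries overlapped, since the PFC libraries, which are neocortical, held the highest mean. Of the hippocampal fields, CA1 had a mean of 17619 TPM and DG one of 10955 TPM. The DG mean was near that of the neocortex and below those of PFC and temporal cortex (12316 TPM). By limma over all genes NEURL4 was not called (adjusted p = 0.0991), where 8.19% of genes were. By exact sign flips of NEURL4 alone p was 0.00781, the smallest that 8 animal groups allow, and 0.0312 adjusted over the 12 tests. With the variance prior that follows the mean level the limma adjusted p was 0.0152. The median of all genes tested also stood 0.55 higher in the hippocampus, so NEURL4 moved by about as much as the median gene. HYPK did not separate the 2 tissues, at 0.00 ± 0.22 (SE, 95% interval −0.44 to 0.44; limma adjusted p = 0.997), with 4 of 8 animal groups higher.

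CA1 and DG, next to each other in the hippocampus, were compared in the same way. NEURL4 was higher in CA1 in 8 of 8 animal groups, by 0.67 ± 0.38 (log2, SE), and 6 of 8 animal groups had less HYPK in CA1 than in DG, at a difference of −0.37 ± 0.37. Neither was called by limma over all genes (adjusted p = 0.199 and 0.490), where 19.4% of genes were. Exact sign flips gave NEURL4 p = 0.00781 (0.0312 adjusted over 12 tests) and HYPK p = 0.0625 (0.125 adjusted). The median of all genes was 1.37 higher in CA1, more than NEURL4, and quantile normalization turned the NEURL4 difference to −0.27 (limma adjusted p = 0.750). Whether the 2 genes differed in this respect was not tested.

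Other measures moved with these hippocampal differences. The 4 listed oligodendrocyte markers summed to 4722 to 8091 TPM in CA1, 723 to 4047 in DG and 49.2 to 7546 in neocortex, and all 3 that could be tested (MBP, MOG and MOBP) passed as higher in hippocampus, 2 of them as higher in CA1 than in DG. The 4 astrocyte markers summed to 138 to 1487 TPM in hippocampus and to 0 to 699 in neocortex, and GFAP and ALDH1L1 passed as higher. The 2 listed microglial markers were at 0 in all 8 DG libraries and in 34 of 40 neocortical ones. CA1 libraries listed a median of 11309 positions and DG libraries 3476. The part of these in the NEURL4 difference was not tested, and in bulk tissue fewer cells of a type and less RNA per cell cannot be told apart.

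CB against the other 7 regions gave higher means for both genes without a call. HYPK had 35358 ± 7628 TPM in CB and 31274 ± 8041 elsewhere (SD, n = 8 and 56), a difference of 0.20 ± 0.28 (log2, SE, limma adjusted p = 0.743), with CB higher in 5 of 8 animal groups. NEURL4 had 16017 ± 7698 and 11540 ± 5576 TPM, a difference of 0.49 ± 0.28 (log2, SE, limma adjusted p = 0.476), higher in 6 of 8. Only 2.23% of genes were called here. Exact sign flips gave p = 0.125 for HYPK and p = 0.0469 for NEURL4, which was 0.122 adjusted over 12 tests. The NEURL4 libraries of CB were highest in the 20-yr-old animals, at 25212 (males) and 28929 TPM (females), and the other 6 lay from 7548 to 18753 TPM.

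**Figure D3:**
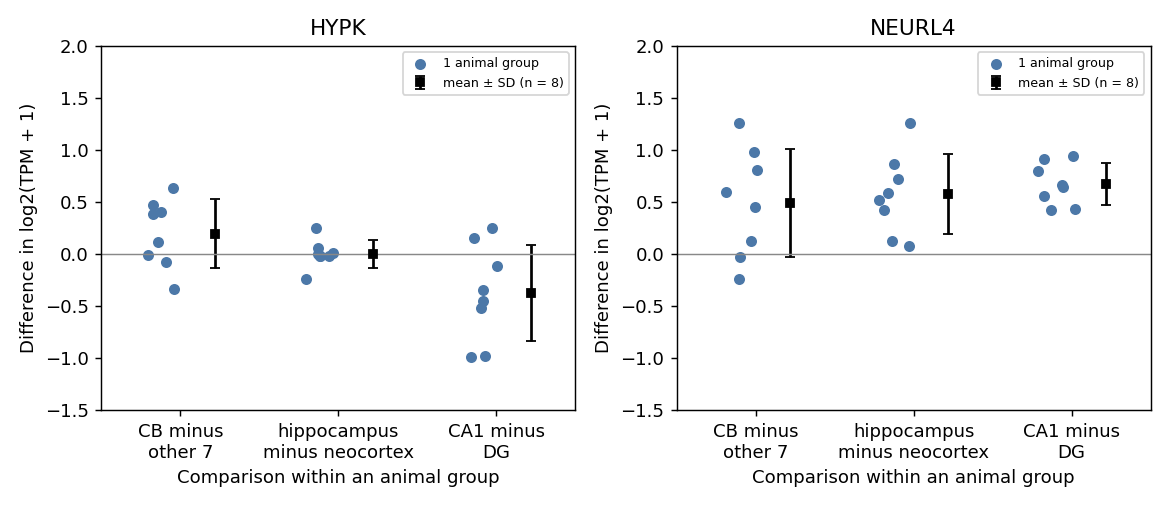
Differences in log2(TPM + 1) within each of the 8 animal groups (circles) and their mean ± SD (squares) for CB against the other 7 regions, hippocampus against neocortex and CA1 against DG. All 8 circles lie above 0 for NEURL4 in the last 2 comparisons, while for HYPK the hippocampus lies at 0 and 6 of 8 circles lie below 0 for CA1 against DG.

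The share of tags at the main cluster was compared as a second measure. For NEURL4 the joined cluster held 97.8 ± 1.06% in CB (96.7% to 100%) and 92.0 ± 0.369% in CA1 (91.6% to 92.5%). These 2 regions were not tested against each other for this share. CB libraries listed 644 to 6436 positions of all genes and CA1 libraries 7001 to 23670. The 100% came from the CB library with 644, which listed 1 position of NEURL4. The part of the number of listed positions in the share was not tested. PCC was the widest, at 87.6 ± 11.2%, with 64.7% in 1-yr-old males and 78.8% in 1-yr-old females. Over all regions the permutation test within animal groups gave p = 0.0287 for NEURL4 and p = 0.0692 for HYPK, and neither held after adjustment over the 6 tests of shares (adjusted p = 0.172 and 0.208). For HYPK the share was 99.9 ± 0.0451% in CA1 and 97.5 ± 3.43% in CB (SD, n = 8).

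The share of the single main position was either near that of the cluster or 0, since each library lists 1 position, and it did not pass the test between regions (permutation test, adjusted p = 0.699 for both genes). Which position stood for the cluster varied between libraries of every region. HYPK was listed at 8231 nt in 7 of 8 libraries of CB, OC and PC and in 4 of 8 of CA1 and PCC, and in all 8 libraries of 4-yr-old males but in 3 of 8 of 20-yr-old females. NEURL4 was listed at 14038 nt in 7 of 8 libraries of CB and OC and in 3 of 8 of PCC. Between ages and sexes the joined shares differed by −0.33 and −0.45 percentage points for HYPK (10 and 20 yr minus 1 and 4 yr, males minus females) and by 1.35 and −1.94 points for NEURL4, with exact permutation p-values of 0.143 to 0.486. By diffSplice of limma, the spread of tags over the positions of each gene did not pass the test for CB against the other regions in HYPK (adjusted p = 0.742) or in NEURL4 (adjusted p = 0.941), where 0.632% of the 1265 genes tested were called.

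**Figure D4:**
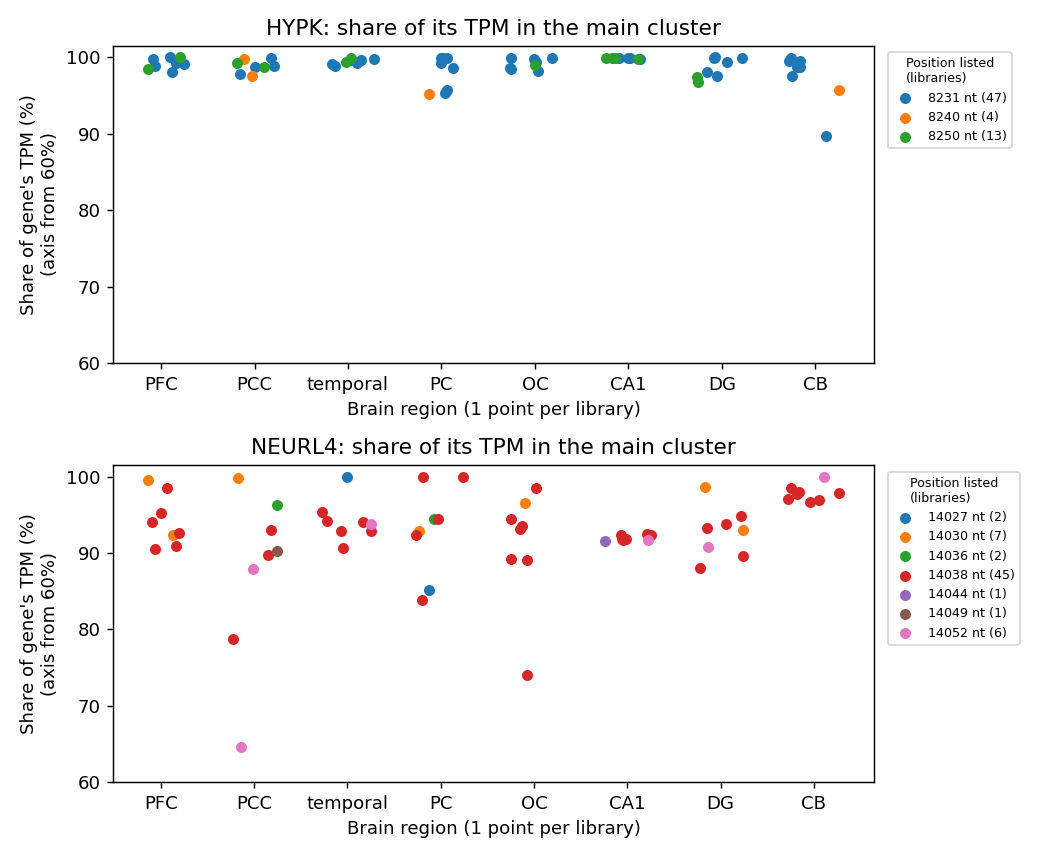
Share of the TPM of HYPK (top) and NEURL4 (bottom) held by the main cluster in each library, by region, on an axis from 60%, with the position that stands for the cluster as colour and its number of libraries in the key. HYPK lies above 95% in all libraries but 1 of CB, whereas NEURL4 ranges from 64.7% in a PCC library to 100%, with CB at 96.7% or more and CA1 between 91.6% and 92.5%.

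Neither gene was called between ages or between sexes. Averaged over regions, the 4 animal groups of 10 and 20 yr had 31205 ± 1545 TPM of HYPK and those of 1 and 4 yr 32363 ± 2611 (SD, n = 4), a log2 difference of −0.07 (95% interval −0.90 to 0.76; limma adjusted p = 0.974). NEURL4 had 13039 ± 3042 and 11160 ± 1005 TPM, a log2 difference of 0.10 (95% interval −0.77 to 0.97; limma adjusted p = 0.963). Exact permutations gave p = 0.371 for HYPK and 0.600 for NEURL4, in a design whose smallest p is 0.0286. The background was the same: 0% of all genes were called by limma for age, for sex or for region by age, with 585, 321 and 454 genes at an unadjusted p under 0.05. Males and females had 31327 ± 1515 and 32241 ± 2692 TPM of HYPK, and 11740 ± 2706 and 12459 ± 2225 TPM of NEURL4 (SD, n = 4 animal groups; limma adjusted p = 0.997 and 0.996, exact permutation p = 0.771 for both).

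Within these means, the animals of 20 yr stood out for NEURL4. The group means were 15529 TPM in females and 15701 in males of 20 yr, and 9688 to 12591 TPM in the other 6 animal groups. Both libraries of 20 yr were the highest of their region in PFC, CB and temporal cortex, and in no other region. In PC they had 5827 (females) and 6336 TPM (males), and in OC 6675 and 6884 TPM. A mean of TPM over regions gives most weight to the regions with high values. The higher means at 20 yr were seen after the values were examined, and were not tested. HYPK had its highest group mean, 36214 TPM, in 4-yr-old females and its lowest, 29409, in 10-yr-old males.

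**Figure D5:**
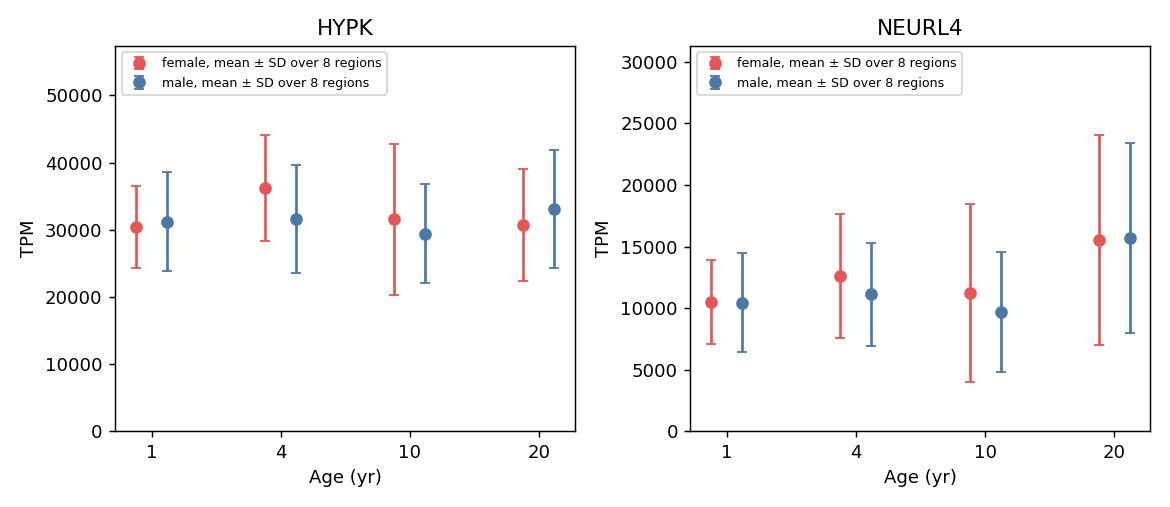
Mean TPM of HYPK (left) and NEURL4 (right) over the 8 regions by age in yr, for females and males, with the SD over regions as bars. The bars overlap at all ages, and the NEURL4 means of both sexes at 20 yr, 15529 and 15701 TPM, are the highest.

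The age differences did not point one way across regions. In PFC, HYPK was higher in all 4 libraries of 10 and 20 yr (36544, 38442, 41199 and 48633 TPM) than in all 4 of 1 and 4 yr (22580, 28923, 32658 and 35217 TPM). This was the 1 case without overlap, in either direction, in 16 pairs of a gene and a region. In PFC, 0.409% of all genes had no overlap with the older libraries higher, and 2.19% with the older libraries lower. The 41199 TPM came from the shallowest library, and the groups did not overlap without it. In temporal cortex HYPK went the other way and by more, at 20468 ± 6469 TPM in older and 33704 ± 5204 in younger animals (SD, n = 4), with overlap. For NEURL4 the widest difference was in PFC, 22238 ± 5151 against 13455 ± 2313 TPM, with overlap. The region by age term was not called for HYPK (limma, F = 0.474, adjusted p = 0.991) or NEURL4 (limma, F = 0.358, adjusted p = 0.997).

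The genes that work with HYPK and NEURL4 were listed at lower levels, which the choice of the pair by rank fixed in advance. Of 56 genes in 6 lists, 42 were listed, and 24 passed the filter of at least 1 TPM in at least 8 libraries. Of these 24, limma called 5 for any difference between regions (20.8%, against 26% of all genes), 1 for hippocampus against neocortex and 6 for CA1 against DG. The calls of the last 2 comparisons were all higher in the hippocampus or in CA1, the direction of 7.98% and 18.5% of all genes. None was called for CB, age or sex (3, 2 and 2 at an unadjusted limma p under 0.05). The median of the 24 was 1.70 higher in CA1 than in DG on the log2 scale, beside 1.37 for all genes.

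The subunits of the NatA complex were listed unevenly. NAA10, its catalytic subunit, had 159 TPM on average and was listed in 59 libraries. NAA15, the subunit that anchors it to the ribosome, had 3.46 TPM and was listed in 13 libraries only. NAA15 was higher in CA1 than in DG (log2 difference 2.53, limma adjusted p = 0.0173). NAA16 was listed in 1 library. Of 8 subunits of other N-terminal acetyltransferases, 7 were listed and 3 tested. NAA38 (308 TPM) and NAA60 (24.9 TPM) differed between regions (limma adjusted p = 0.00129 and 0.0133). NAA60, listed in 33 libraries, and NAA80, listed in 14, were higher in CA1 than in DG, by 4.34 and 2.77. A library that does not list a gene counts as 0 TPM, and CA1 libraries listed a median of 11309 positions against 3476 in DG. The part of this in the CA1 calls was not tested. Among factors at the ribosome exit, SRP14 of the signal recognition particle was the highest, at 1000.2 TPM in 62 libraries, and the 1 of 7 tested that differed between regions (limma adjusted p = 0.0113). HSPA8, the constitutive Hsp70, had 162 TPM and NACA, of the nascent chain complex, 134 TPM.

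Huntingtin and its binding partners gave 8 tested genes of 11. HTT had 11.03 TPM in 29 libraries and was not called in any comparison. HIP1R, an endocytic actin linker at 3.30 TPM in 11 libraries, was higher in hippocampus by 1.23 (limma adjusted p = 0.0402) and in CA1 by 3.14. SH3GL3, listed in 23 libraries, was higher in CA1 by 3.82. The same limit from unlisted libraries holds for both. PACSIN1 and OPTN had the highest levels, 156 and 147 TPM, and were not called. On the side of NEURL4, 9 of 14 neuralized and Notch genes were listed and 2 were tested, NEURL1 (15.6 TPM, 19 libraries) and MIB2 (12.6 TPM, 19 libraries), with no call by limma. JAG2 had 3.51 TPM in 4 libraries. Of 7 centriole genes, CEP290 (7.82 TPM) and HERC2 (6.45 TPM) were tested without a call, and CCP110, which encodes the CP110 partner of NEURL4, was listed in 1 library.

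The genes whose TPM over the 64 libraries was most like that of each member are given as a description, since all share libraries, depth and a fixed total. For HYPK these included FLYWCH1 (Pearson r = 0.52, Spearman rho = 0.40) and ELOC (r = 0.47, rho = 0.21). SUPT5H (r = 0.44, rho = 0.29) and RAB13 (r = 0.41, rho = 0.27) were also among them. For NEURL4 the first was CLU (r = 0.65, rho = 0.65), which encodes clusterin. The unnamed ENSMMUG00000021852 (r = 0.59, rho = 0.61) and PTMA (r = 0.59, rho = 0.71) followed. NFIB (r = 0.50, rho = 0.49) and ENSMMUG00000010044 (r = 0.50, rho = 0.63) came after these. HYPK and NEURL4 had r = 0.30 with each other. With the log2 number of positions listed in the library, HYPK had r = −0.22 (rho = −0.37) and NEURL4 r = 0.24 (rho = 0.22).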

How the data were processed

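The data were 64 CAGE-seq libraries of rhesus macaque brain, 1 for each of 8 regions, 4 ages and 2 sexes. Per the study's methods, reads were filtered by the authors, mapped to MMUL 1.0 with TopHat2 where unique, and their 5′ ends joined into clusters library by library. The deposited values are RPM, called TPM here, scaled by the authors to the tags of each library, and no value above 0 was under 1 TPM. No genome sequence was used here, and the feature at each position was not looked up.

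A gene's TPM was the sum over its positions. Genes of at least 1 TPM in at least 8 libraries (6106) were fitted on log2(TPM + 1) with limma 3.58.1 in R 4.3.3. Regions were compared with the animal group (age and sex) as a block, because all regions were collected from each specimen per the supplemental methods. In the values, deviations of libraries of the same animal group had a median correlation of 0.00879 over 224 pairs. Ages and sexes were compared on the 8 animal-group means. Calls were made at a Benjamini-Hochberg adjusted p under 0.05, two-sided. Single values were tested by exact sign flips or permutations of animal groups, and shares by permutation within animal groups, in Python 3.11.15. The fit and the permutation functions were tested on simulated data. Low values were whole multiples of a step (99.96% to 100% within 0.021 TPM), which gave the tags per library. No count test was run on them.

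HYPK and NEURL4, the gene lists and the tests were chosen with earlier results of these data known. List genes are named where called, otherwise up to 3 of each list by mean TPM, beside genes within 50 kb, the 5 most alike by Pearson r, and markers. Values of 2 genes that this rule takes in are not reported here. Alternatives were another pseudocount, no filter, quantile normalization, rescaling to the TPM of the other genes, 1 position only, joined positions, no block, neocortical means, and leaving out libraries or animal groups. Added after seeing the data were the joined main cluster, a variance prior that follows the mean level, and the exact tests of TPM. RefSeq gene order was taken from T2T-MMU8v2.0 for names only.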

Additional observations from a re-analysis of the deposited data

Results flagged for a closer look

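Groups of 4 or 8 values were checked for a value far from the others (Dixon's test, 40 groups of TPM or cluster share, of which chance alone marks about 1 in 20). Both values found were shares of the main cluster in males of 10 yr. In the CB library the main cluster held 89.7% of HYPK TPM, against 95.8% to 100% in the other 7 CB libraries, and 4252 TPM of HYPK stood at 8274 nt, a position listed in 4 libraries. In the OC library it held 74.1% of NEURL4 TPM, against 89.0% to 98.5% in the other 7. Without the CB library the regions gave a permutation p of 0.0568 for the NEURL4 share (0.183 adjusted over 6 tests), and without the OC library 0.0147 (0.0883 adjusted). The HYPK share gave 0.0609 and 0.0723.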

How the results depend on the processing

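Of 427 values under alternatives for 30 results, 380 kept their direction and their side of the threshold. NEURL4 kept its call for any difference between regions in all alternatives but 2. With a pseudocount of 0.25 TPM, F fell to 2.72 (limma adjusted p = 0.0534), and with the main position alone to 1.23, where libraries that list another position of the cluster count as 0. The main cluster gave F = 5.60. Without the animal-group block F was 5.31 for NEURL4 and 0.631 for HYPK, and taking out the block changed no call of either gene. Leaving out each animal group kept NEURL4 called (limma adjusted p = 0.00424 to 0.0206) and HYPK not called, as did leaving out the PFC library of the oldest females.

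The log2 difference of NEURL4 in hippocampus against neocortex passed with no filter (0.58), quantile normalization (0.71), rescaling to the other genes (0.74), the variance prior that follows the mean level (0.58) and the exact test (0.58). CA1 against DG passed with no filter (0.67) and the exact test (0.67), and turned to −0.27 with quantile normalization. With 1 animal group left out, the exact tests of these 2 differences gave p = 0.0156, the smallest they allow, and none passed after adjustment. Differences near 0 that were never called changed sign. Under quantile normalization HYPK in hippocampus became −0.13, NEURL4 with age −0.20 and HYPK in males 0.069. With the main position alone, HYPK in hippocampus became −1.80, HYPK in males 2.32, NEURL4 with age −0.34 and NEURL4 in males 0.28. Without 1 animal group, HYPK in hippocampus ranged from −0.034 to 0.036, HYPK in males from −0.075 to 0.033, and NEURL4 with age from −0.039 to 0.23. The cause was not tested.

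The share of the main position became −0.45 points for HYPK in males, 1.35 for NEURL4 with age and −1.94 for NEURL4 in males with positions joined. On the logit scale NEURL4 with age was 0.027 (log2 odds). Without 1 animal group the NEURL4 share ranged from −8.43 to 7.57 points with age and from −6.79 to 8.03 in males.

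Counts over all genes moved more. For any difference between regions, 1590 genes were called, 649 with quantile normalization and 1014 to 1415 without 1 animal group (the fewest without 4-yr-old males). For hippocampus against neocortex, 500 became 755 with no filter, 148 with quantile normalization and 243 to 514 without 1 animal group, the fewest without 20-yr-old females. For CA1 against DG, 1182 became 1838, 276 and 747 to 1307, with 747, 777 and 784 without 4-yr-old males, 20-yr-old females and 1-yr-old females. For age, 0 became 1 with neocortical means, 5 with the variance prior that follows the mean level and 1 without 4-yr-old females or 4-yr-old males, where leaving out an animal group gave 0 to 1. For region by age, 0 became 30 with no filter and 0 to 1 without 1 animal group (1 without 10-yr-old males). For the spread of tags, 8 became 23 with positions joined.

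With 8 animal groups and 1 library for each region, differences within a region and age have no replicate. No position under 1 TPM was listed.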
